A study of Mus musculus with 6 samples.

Results

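A set of 7 genes was followed here through single-cell RNA counts of mouse spinal cord: the receptors Trem2, Fcgr3 and Cd33, the signalling adaptors Tyrobp and Fcer1g, the kinase Syk and the phospholipase Plcg2. The genes were taken by name from the gene rows, and all 7 were present among the 17042 genes that the 6 libraries shared. The data were Drop-seq libraries, in which droplets give the RNA of each cell a shared barcode and each molecule its own tag, counted as a unique molecular identifier (UMI). In all, 3 groups of 2 libraries were compared: wild-type mice given vehicle (WT-Veh), mice with the SOD1-G93A transgene given vehicle (SOD1-Veh), and mice with the SOD1-G93A transgene given Necrostatin-1s (SOD1-Nec), an inhibitor of the kinase RIPK1. SOD1-G93A is a human mutant superoxide dismutase transgene used as a model of amyotrophic lateral sclerosis. The sources used here give no age, dose or transgene promoter. Nothing states that a library is 1 animal or that paired libraries are different animals, so p-values measure only the spread between these libraries, which may be technical. With 2 libraries a group, an exact permutation test of a single gene cannot go below p = 0.333, so the tests below are fits across all genes.

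TREM2 is a lipid-sensing receptor of microglia, the resident macrophages of the central nervous system, and it has no signalling tail of its own. It signals through the protein of Tyrobp (DAP12), whose immunoreceptor tyrosine-based activation motif is phosphorylated by Src-family kinases and then recruits SYK, which activates phospholipase C gamma 2, the product of Plcg2. The protein of Fcer1g, the Fc receptor gamma chain, does the same work for activating Fc receptors such as that of Fcgr3, the low-affinity receptor III for IgG. CD33 belongs to the sialic acid-binding Siglec receptors. In humans, variants near or in several of these genes are associated with the risk of Alzheimer's disease.

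The start regions of these genes were read from RefSeq to show what the shared myeloid expression below sits beside. RefSeq's promoter table (GRCm38.p6) matched 6 of the 7 genes; Tyrobp had no entry. Upstream sequence of Trem2, Fcgr3 and Fcer1g is shown 5′ to 3′ on the strand of the gene, without bases that GENCODE annotates as exon, and capitals mark GAGGAA or its reverse complement TTCCTC, the core of the sites of PU.1, a transcription factor of myeloid cells. The Trem2 stretch is chr17:48346151-48346400 on the plus strand, the Fcgr3 stretch is chr1:171059404-171059626 on the minus strand and the Fcer1g stretch is chr1:171234366-171234599 on the minus strand.
Trem2: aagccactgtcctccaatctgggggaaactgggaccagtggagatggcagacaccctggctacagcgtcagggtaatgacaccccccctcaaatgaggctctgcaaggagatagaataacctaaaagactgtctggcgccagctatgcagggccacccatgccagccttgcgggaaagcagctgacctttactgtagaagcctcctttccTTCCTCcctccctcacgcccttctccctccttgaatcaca
Fcgr3: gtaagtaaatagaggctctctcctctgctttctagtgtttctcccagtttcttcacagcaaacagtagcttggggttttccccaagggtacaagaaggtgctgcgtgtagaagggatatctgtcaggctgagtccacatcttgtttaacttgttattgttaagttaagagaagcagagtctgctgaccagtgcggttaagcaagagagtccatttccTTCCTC
Fcer1g: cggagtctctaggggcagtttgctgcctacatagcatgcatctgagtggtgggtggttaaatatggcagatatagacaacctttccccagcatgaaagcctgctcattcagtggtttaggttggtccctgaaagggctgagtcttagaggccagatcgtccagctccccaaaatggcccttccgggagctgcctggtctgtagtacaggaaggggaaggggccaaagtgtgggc
Both strands of the 250 bases before each start were searched, and no other motif was. The 6 bases began 40 bases before the start of Trem2, 6 before the first start of Fcgr3, 226 before that of Cd33 and 9 before the second start of Syk. Fcer1g and Plcg2 held no such letters in the window. Thus 4 of the 6 genes had a match, against 25.9% of the 27025 genes in the table, with exon bases included in both. The matches of Cd33 and Syk lay in bases that GENCODE annotates as exon. A match is a description of letters and is not a measured site.

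The 6 tables held 21919 barcodes and 1508618 to 1767205 UMIs per library, and 3331 cells were kept, between 395 and 791 per library. A single retained barcode sequence occurred in more than 1 library. Cells fell into 20 clusters, which were named by markers that exclude the 7 genes; names such as microglia stand for marker-defined, microglia-like classes. Sod1, a row in which human transgene and mouse gene were not separated here, stood at 248 and 179 CPM (UMIs per 1000000 UMIs of the cells summed) over all retained cells in WT-Veh and at 3824 to 5547 in the 4 SOD1 libraries. All 63 cells of a cluster led by skeletal muscle genes came from SOD1-Veh, 16 and 47 per library, and 162 of 253 neurons came from WT-Veh library 2. The libraries numbered 1 list 18169 genes each and those numbered 2 list 18650, so each numbered set of 3 was listed together; no other batch is named. Where groups do not overlap, the direction within each numbered set follows from that and adds no evidence.

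The microglial class held 636 cells, 78 to 157 per library, and 70286 to 100563 UMIs per library. All 13 of its listed markers were detected, with Tmem119 at 492 UMIs and P2ry12 at 653, while the 8 monocyte markers summed to 75.6 CPM and the 6 perivascular macrophage markers to 17.9. Levels below are CPM within the same class of a library, with the mean ± SD over 6 libraries unless other groups are named. UMIs come from transcript ends and are not scaled by length, so each gene is compared between cells and not with another gene. In whole-sample sums, fewer cells of a type and less RNA per cell cannot be told apart.

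Trem2 marked microglia most narrowly of the receptors. Microglia held 705 of its 811 UMIs in retained cells, or 86.9% (95% Wilson interval 84.4 to 89.1; this and all later intervals of shares cover counting error only). Its level in microglia was 1408 ± 159 (n = 6), with every library between 1154 and 1522. The next class, endothelial cells, stood at 442 ± 330, with a range of 59.8 to 876 that did not reach the microglial values. The endothelial cluster, led by Ly6c1 and Flt1, also held the 13 microglial markers at 11851 CPM, beside 24710 in microglia, and 43 UMIs of Tmem119; their part in its Trem2 level was not tested. Monocytes, the blood-derived relatives of microglia, had 6 Trem2 UMIs in 294 cells and a level of 32.1 ± 18.9.

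Among classes with at least 50 cells, Fcgr3 was also highest in microglia, at 833 ± 167 (n = 6). Its microglial range of 537 to 1043 did not overlap that of monocytes, at 268 ± 126 with a maximum of 443. It did overlap that of the 28 dendritic cells, at 716 ± 394 with a range of 242 to 1220. Monocytes, endothelial cells and neutrophils did not differ beyond their spread in Fcgr3, at 268, 257 and 211. Fcgr2b, the inhibitory IgG receptor, is a related gene with similar extracellular domains, and the sources used here do not state how reads that match both were counted. Cd33 was sparse: 61 UMIs in all retained cells, of which 37 lay in microglia and 20 in neutrophils. Its levels of 74.6 ± 28.7 in microglia and 48.8 ± 44.3 in neutrophils overlapped, and B cells, T or NK cells and astrocytes held none.

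Among classes with at least 50 cells, both adaptors had their highest means in monocytes, microglia and neutrophils, in that order. Endothelial cells followed, at 944 ± 674 for Tyrobp and 510 ± 304 for Fcer1g, and overlapped neutrophils in both. The 28 dendritic cells were also high, at 1848 ± 758 for Tyrobp and 1507 ± 825 for Fcer1g. Tyrobp stood at 2393 ± 329 in monocytes, 2148 ± 214 in microglia and 1119 ± 152 in neutrophils (n = 6 each). The monocyte and microglial ranges overlapped, while the highest neutrophil library, at 1404, was below the lowest microglial library, at 1879. T or NK cells, in which DAP12 pairs with activating natural killer receptors, had 877 ± 395 and lay above B cells, at 76.5 ± 54.5, without overlap. Fcer1g followed the same order, with 1627 ± 263 in monocytes, 1308 ± 204 in microglia and 718 ± 180 in neutrophils, and neighbouring ranges overlapped down to T or NK cells at 466 ± 335. Oligodendrocytes had 3.53 ± 8.64 for Tyrobp and 15.7 ± 24.6 for Fcer1g.

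Syk departed from the other 6 genes. B cells held 139 of its 269 UMIs, or 51.7% (45.7 to 57.6), against 15.6% in microglia. Its B-cell level was 512 ± 137 (n = 6), and the lowest B-cell library, at 342, exceeded the highest library of every other class with at least 50 cells; monocytes followed at 124 ± 31.3, neutrophils at 86.5 ± 36.0 and microglia at 83.2 ± 53.2, with overlapping ranges. SYK is also the kinase of the B-cell receptor. Within B cells the cluster led by Vpreb3 had 605 ± 199 and the cluster with Ms4a1 among its leading genes 363 ± 222, with overlapping ranges over libraries. Plcg2 was spread more evenly, at 111 ± 62.8 in microglia, 80.3 ± 49.8 in monocytes, 64.0 ± 77.1 in T or NK cells, 62.4 ± 49.5 in neutrophils and 61.2 ± 36.8 in B cells. None of these 5 neighbours in the order differed beyond its spread. Trem2, Tyrobp, Fcer1g, Fcgr3 and Cd33 had 90.9% or more of their UMIs in the 5 myeloid classes together (microglia, monocytes, neutrophils, myeloid progenitors and dendritic cells), against 77.5% for Plcg2 and 41.3% for Syk.

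**Figure D1:**
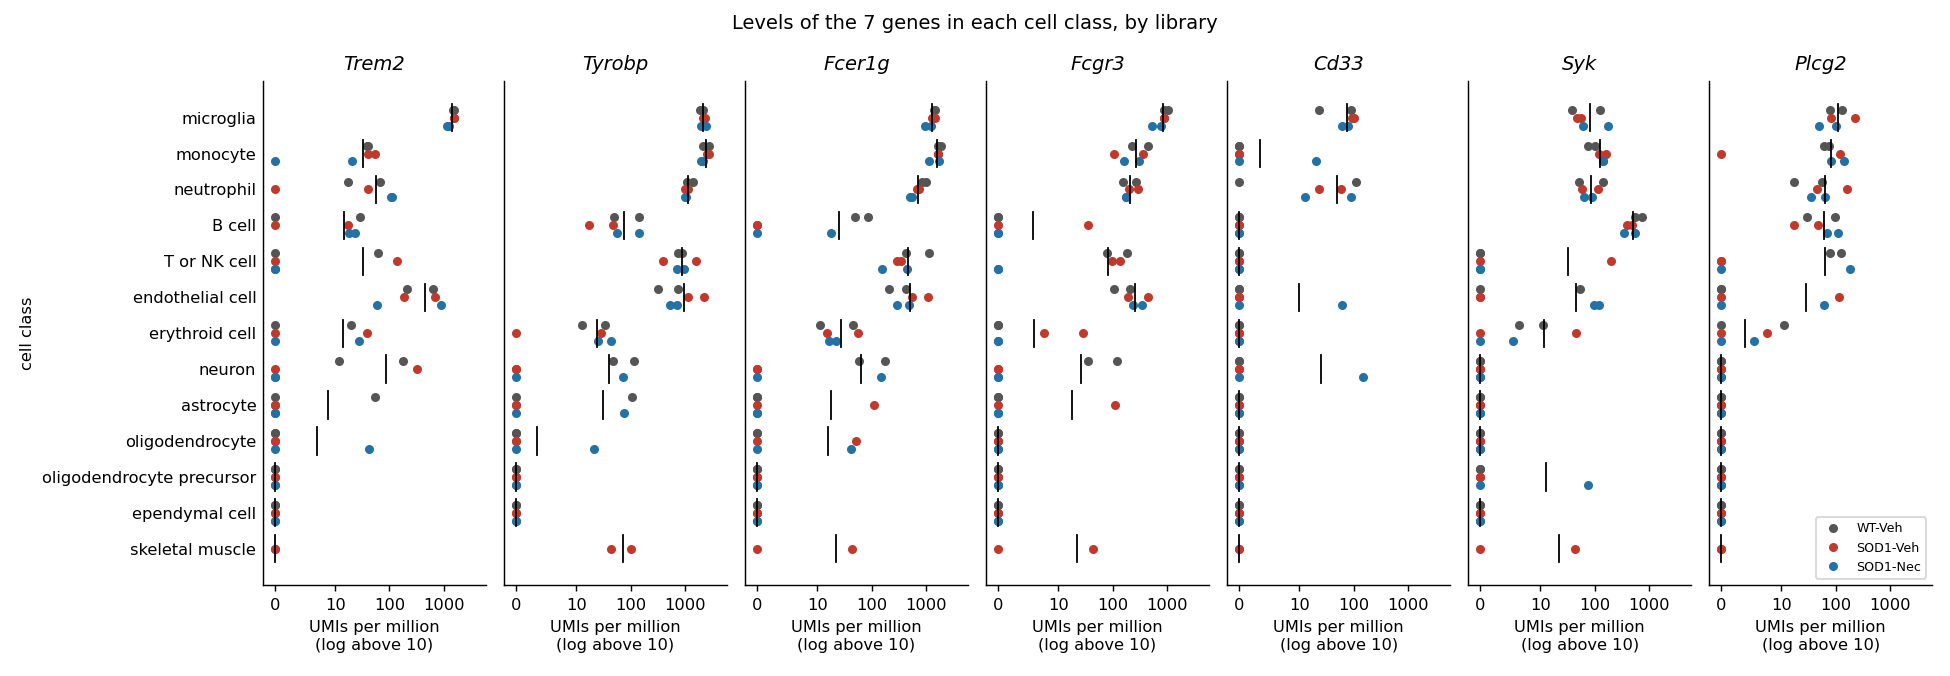
Levels of the 7 genes (x axis, CPM, logarithmic above 10) in the 13 classes with at least 50 cells (y axis). Each point is 1 library, coloured by group, and the vertical line is the mean over libraries. Trem2 and Fcgr3 peaked in microglia, at means of 1408 and 833, and Syk in B cells, at 512.

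**Figure D2:**
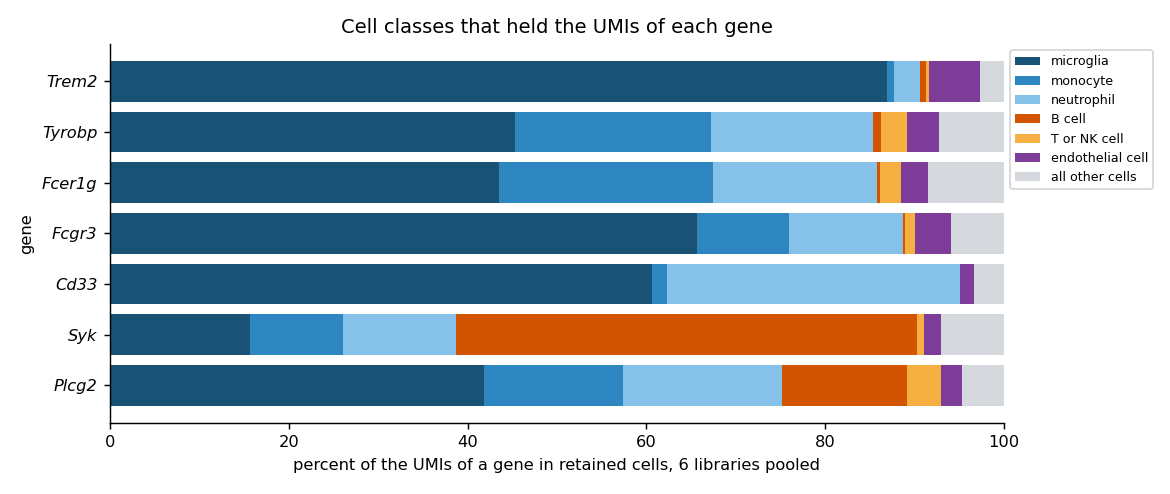
Share of the UMIs of each gene (x axis, percent, 6 libraries pooled) held by 6 named classes and by all other cells. Microglia held 86.9% of Trem2 and 15.6% of Syk, and B cells held 51.7% of Syk.

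The neutrophil class joined a cluster of 281 cells led by the granule genes Ltf, Ngp and Camp and a cluster of 132 cells led by Retnlg, Mmp8 and Cxcr2. Tyrobp stood at 870 ± 236 in the Ltf-led and 2010 ± 512 in the Retnlg-led cluster (n = 6), with library ranges of 572 to 1216 and 1243 to 2816 that did not overlap. Syk was at 54.6 ± 46.8 and 210 ± 62.2, and its ranges, up to 135 and from 168, did not overlap either. Fcgr3 was at 150 ± 38.7 and 389 ± 147, with overlap, and Fcer1g at 704 ± 209 and 832 ± 339, with overlap. These are descriptions, since the clusters were drawn from the same cells. Microglia joined a cluster of 462 cells led by the chemokine genes Ccl3 and Ccl4 and a cluster of 174 cells led by P2ry12 and C1qc; P2ry12 and C1qc were leading genes of both. Trem2 had 1421 ± 134 in the first and 1386 ± 329 in the second, and Tyrobp 2184 ± 237 and 2285 ± 823, so neither separated the 2 microglial clusters.

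Counted by cell, at 300 UMIs drawn per cell, 42.6% of 613 microglia had a Tyrobp UMI (95% interval 38.7 to 46.5), 29.9% one of Fcer1g, 28.7% one of Trem2 and 20.9% one of Fcgr3; 23 shallower cells were left out. Without the drawing the shares were 63.4%, 51.4%, 51.4% and 37.7%. Oligodendrocytes, which should lack these genes and had a median of 757 UMIs beside 587 in microglia, reached 0.481% for Trem2 and Tyrobp and 0 of 208 cells for Fcer1g and Fcgr3, which allows up to 1.44%. Cd33, Plcg2 and Syk were seen in 2.77%, 3.26% and 2.61% of microglia at this depth. Barcodes with under 100 genes, taken as free RNA, held Trem2 at 0 to 16.3 and Tyrobp at 9.66 to 88.8 CPM.

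The classes were also used to ask which genes varied most like each of the 7, by Pearson's r of log2(CPM + 10) over 13 classes, among genes with at least 100 UMIs. These are descriptions, and the classes share libraries. Among the genes most like Trem2 were Fcrls (r = 0.97), an Fc receptor-like protein, and C1qc (0.96), a chain of complement C1q. Tyrobp was most like Fcer1g (0.98), Fcgr3 (0.96) and Plek (0.94), and Fcer1g like Tyrobp (0.98), Fcgr3 (0.96) and Cd300a (0.95), an inhibitory receptor. For Fcgr3 they were Fcer1g (0.96), Tyrobp (0.96) and Cx3cr1 (0.95), the fractalkine receptor of microglia. Syk came out with Sp140 (0.91), Tifa (0.89) and Lyn (0.88), the Src-family kinase of B and myeloid cells, and Plcg2 with Pycard (0.98), Nfkbid (0.98) and Vav1 (0.97), an exchange factor downstream of SYK. Cd33 had under 100 UMIs and was left out.

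The first comparison, SOD1-Veh against WT-Veh, asks what the transgene changed without treatment. None of the 7 genes was called in microglia. Trem2 in microglia was 1480 and 1512 CPM in the WT-Veh libraries and 1517 and 1522 in SOD1-Veh. The SOD1-Veh values were just above both WT-Veh values, and the fitted ratio was 1.02 (95% interval 0.753 to 1.39; edgeR quasi-likelihood adjusted p = 0.977). Tyrobp was 1879 and 2126 (WT-Veh), then 2176 and 2348 (SOD1-Veh). Both SOD1-Veh libraries were higher than both WT-Veh libraries, with a log2 change of 0.18 ± 0.22 (SE) and an edgeR adjusted p of 0.841. Fcer1g was 1480 and 1387 (WT-Veh), then 1305 and 1494 (SOD1-Veh), and Fcgr3 was 1043 and 864 against 870 and 896, with overlap in both.

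The sparse genes were measured with wide intervals. Syk in microglia was 38.6 and 125 (WT-Veh), then 47.0 and 56.9 (SOD1-Veh), from 3 to 11 UMIs per library. Its log2 change of -0.67 had an interval of -2.46 to 1.13, and without WT-Veh library 2 it was 0.40. Plcg2 was 129 and 79.6 (WT-Veh), then 82.3 and 228 (SOD1-Veh), with a log2 change of 0.56 (-0.68 to 1.79) that became -0.35 without SOD1-Veh library 2. Cd33 was 90.1 and 22.7 (WT-Veh), then 94.1 and 99.6 (SOD1-Veh), from 2 to 8 UMIs per library, and did not pass the filter on low counts in microglia. Of the 6 tested genes 0 were called by edgeR, 0 had an unadjusted p under 0.05, and DESeq2 called 0; edgeR called 2.39% of the 1548 genes tested in microglia. Without a test, Trem2 and Tyrobp of the 6 tested genes were higher in both SOD1-Veh libraries than in both WT-Veh libraries, and 0 were lower. Those directions held for 20.7% and 20.4% of all tested genes. Cd33, also higher in both, did not pass the filter and is outside those shares. Simulated 2-fold rises in randomly drawn tested genes were called for 32% of them in this fit, and simulated 4-fold rises for 100%. The simulation gave all genes a common spread. These shares are averages over the tested genes and do not give the rate for genes as sparse as Syk or Plcg2.

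**Figure D3:**
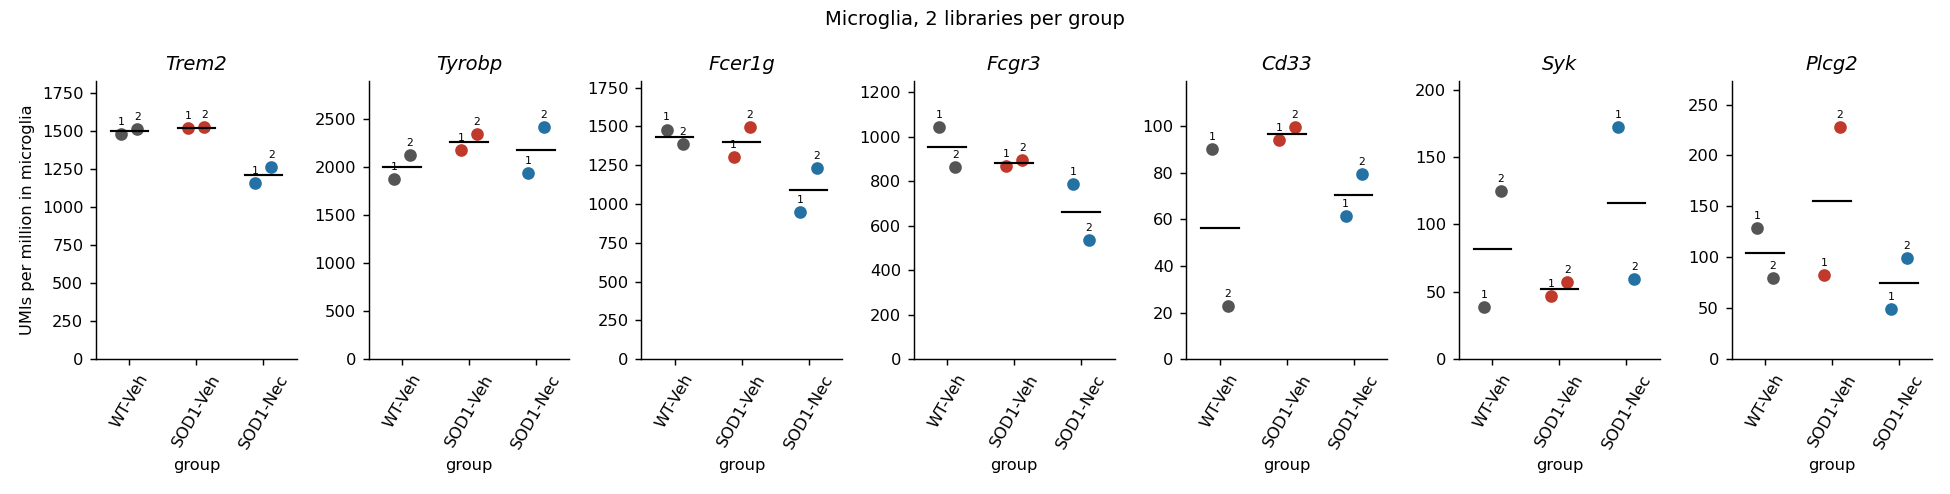
Level in microglia (y axis, CPM, from 0) of the 7 genes in the 2 libraries of each group (x axis), with the library number above each point and the group mean as a line. The SOD1-Nec points of Trem2, Fcer1g and Fcgr3 lie below the 4 other points, and Tyrobp overlaps.

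The second comparison, SOD1-Nec against SOD1-Veh, asks what Necrostatin-1s changed in transgenic cords, and the third, SOD1-Nec against WT-Veh, sets treated transgenic cords beside wild type; they share the SOD1-Nec libraries. Trem2 in microglia was 1154 and 1263 in SOD1-Nec. Both were below all 4 other libraries, which ran from 1480 to 1522. The fitted ratio was 0.818 to SOD1-Veh (0.601 to 1.11; edgeR adjusted p = 0.628) and 0.837 to WT-Veh (0.615 to 1.14; adjusted p = 0.565), so the test did not call it. Fcer1g was 946 and 1233 in SOD1-Nec, also below the range of 1305 to 1494 in the 4 others. Its ratio was 0.805 to SOD1-Veh (0.587 to 1.10; edgeR adjusted p = 0.608) and 0.791 to WT-Veh (0.578 to 1.08; adjusted p = 0.420).

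Fcgr3 was 786 and 537 in SOD1-Nec, below 864 to 1043 in the 4 others. Its ratio to WT-Veh was 0.712 (0.508 to 0.997) with an unadjusted edgeR p of 0.0474 and an adjusted p of 0.238, and its log2 change of -0.49 moved to -0.20 without SOD1-Nec library 2 and to -0.76 without SOD1-Nec library 1. Against SOD1-Veh the log2 change was -0.39 ± 0.25 (SE; edgeR adjusted p = 0.554), and -0.11 without SOD1-Nec library 2. Since both SOD1-Nec values of the 3 genes lay below all 4 others, they were necessarily lower in both numbered sets too. Being lower in SOD1-Nec than in all 4 others was not rare: it held for 13.9% of the 1548 tested genes. Tyrobp, at 1941 and 2416, overlapped both other groups, with log2 changes of -0.01 ± 0.21 to SOD1-Veh and 0.17 ± 0.22 to WT-Veh (SE).

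The downstream genes were again sparse. Syk in SOD1-Nec microglia was 172 and 59.7, both above the SOD1-Veh values of 47.0 and 56.9, with a log2 change of 1.14 (-0.58 to 2.85) that was 0.26 without SOD1-Nec library 1. Plcg2 was 49.1 and 99.4, and overlapped SOD1-Veh, with a log2 change of -0.94 (-2.22 to 0.35). Cd33 was 61.4 and 79.6. In SOD1-Nec against SOD1-Veh edgeR called 0 of the 6 tested genes, with 0 at an unadjusted p under 0.05 and 0 called by DESeq2, beside 3.42% of all tested genes. Without a test, Trem2, Fcer1g and Fcgr3 of the 6 tested genes were lower in both SOD1-Nec libraries, and Syk was higher. Those directions held for 24.9% and 18.3% of all tested genes. Cd33, also lower in both, did not pass the filter and is outside those shares. Of the 6 tested values 5 were below 0, with a median log2 change of -0.30 beside -0.05 over all tested genes. In SOD1-Nec against WT-Veh edgeR called 0 of 6, with 1 at an unadjusted p under 0.05, Fcgr3, and 0 called by DESeq2, beside 6.2% of all tested genes. Without a test, Trem2, Fcer1g and Fcgr3 were lower in both SOD1-Nec libraries than in both WT-Veh libraries and 0 of the 7 were higher, beside 26.7% and 23.1% of all tested genes. There 4 of the 6 values were below 0, with a median of -0.30 beside 0.00 over all tested genes.

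Other measures moved with the SOD1-Nec values. The 8 erythroid markers, all detected in microglia, summed to 47224 and 32258 CPM in SOD1-Nec microglia, 9975 and 16474 (WT-Veh), then 2799 and 5293 (SOD1-Veh). The 13 microglial markers summed to 18595 and 20007 in SOD1-Nec, 29539 and 31459 (WT-Veh), then 24557 and 24927 (SOD1-Veh). Microglia of SOD1-Nec also had fewer UMIs per cell, with medians of 519 and 475 against 596 to 814 in the 4 others. The cluster led by P2ry12 held 44 of 122 and 59 of 157 SOD1-Nec microglia, 28 of 84 and 13 of 78 of SOD1-Veh, and 15 of 100 and 15 of 95 of WT-Veh. The part of these measures in the lower values was not tested.

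Within the cluster led by Ccl3 and Ccl4, Trem2 was 1187 and 1346 in SOD1-Nec and 1458 to 1548 in the 4 others, again without overlap, while Fcer1g (1006 and 1318 against 1148 to 1420) and Fcgr3 (956 and 571 against 881 to 1048) overlapped. Erythroid markers were at 24399 and 7449 CPM there in SOD1-Nec and at 2608 to 6344 in the others. The microglial markers were lower there too, at 20673 and 21476 in SOD1-Nec and 24622 to 31597 in the others. In the cluster led by P2ry12, all 3 genes were below the 4 other libraries. Trem2 was at 1060 and 1037 against 1174 to 1727, Fcer1g at 771 and 1000 against 1526 to 2263, and Fcgr3 at 289 and 445 against 704 to 991. Those 4 libraries held only 13 to 28 cells each in that cluster, and the SOD1-Nec libraries 44 and 59. The microglial markers of that cluster were also lower, at 12522 and 16005 in SOD1-Nec and 23081 to 30175 in the 4 others. How many of all genes were lower in this way was not counted within clusters. Its erythroid markers reached 113905 and 99881 in SOD1-Nec, 54659 and 110955 (WT-Veh), then 3730 and 7274 (SOD1-Veh). WT-Veh library 2 had 1174 for Trem2, 1526 for Fcer1g and 704 for Fcgr3 there. Those levels came from 15 cells and from 10, 13 and 6 UMIs. The part of erythroid and microglial marker RNA in the lower values of either cluster was not tested.

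By cell, a Trem2 UMI was found in 50 of 122 and 62 of 157 SOD1-Nec microglia, and in 54, 60, 53 and 48 of the 100, 95, 84 and 78 microglia of the other libraries. At 300 UMIs per cell the shares were 27.5% and 20.8% in SOD1-Nec, 27.8% and 36.6% in WT-Veh and 33.3% and 32.9% in SOD1-Veh, and left 0 to 13 cells out per library. Drawing fewer UMIs lowers the shares, so a gap in percent can narrow for that reason alone. The part of depth in the lower SOD1-Nec shares was not tested. The intervals of neighbouring libraries at equal depth overlapped.

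**Figure D4:**
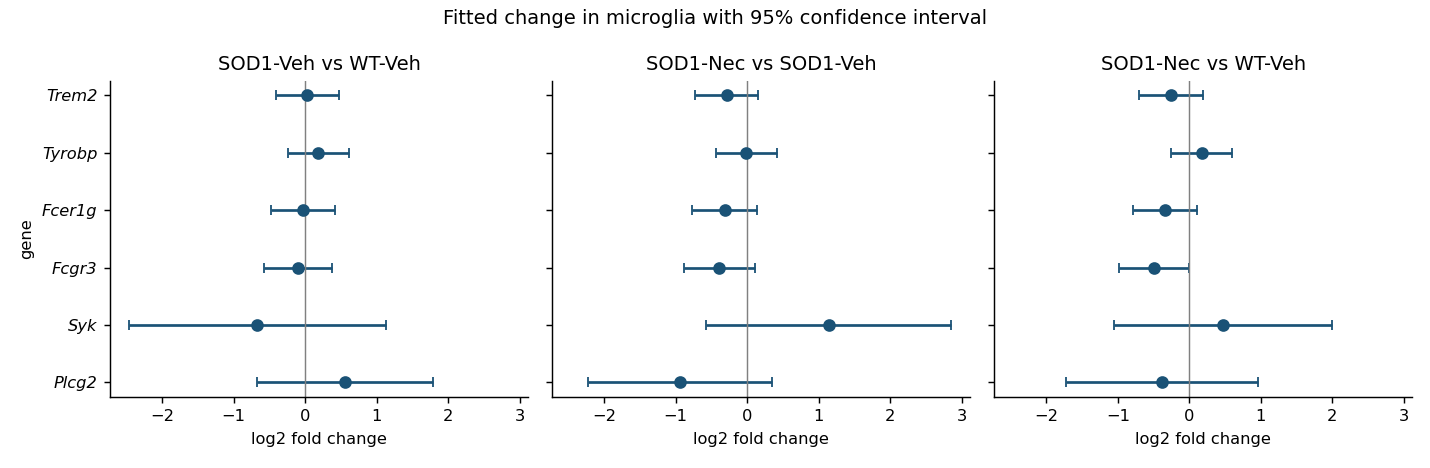
Fitted log2 fold change (x axis) of the 6 genes tested in microglia (y axis) in the 3 comparisons, with 95% confidence intervals from edgeR as bars. Every interval crosses 0 except that of Fcgr3 in SOD1-Nec against WT-Veh, which ends at -0.005, and no adjusted p was below 0.05.

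Other cell classes were tested where every library had at least 20 cells. The share of all genes with no overlap between groups was counted only in microglia, at 18.3% to 26.7% per direction and comparison. For the classes below and over all retained cells it was not counted, so a lack of overlap there is only a description. In neutrophils Fcer1g was 984 and 833 (WT-Veh), 692 and 749 (SOD1-Veh), then 544 and 504 (SOD1-Nec), without overlap between any of the groups. The SOD1-Nec ratio to WT-Veh was 0.582 (0.379 to 0.894), with an unadjusted edgeR p of 0.0169 and an adjusted p of 0.216. The Retnlg-led cluster held 18 of 79 and 11 of 80 SOD1-Nec neutrophils, 35 of 92 and 20 of 61 of WT-Veh, and 26 of 51 and 22 of 50 of SOD1-Veh, and its part in the Fcer1g values was not tested. Tyrobp in neutrophils was 1404 and 1094 (WT-Veh), 1008 and 1157 (SOD1-Veh), then 1053 and 996 (SOD1-Nec). Tyrobp, Fcer1g and Fcgr3 passed the filter in neutrophils, and edgeR and DESeq2 called 0 of them in any comparison; edgeR called 0.118% of 845 genes in SOD1-Veh against WT-Veh, 0% in SOD1-Nec against SOD1-Veh and 0.118% in SOD1-Nec against WT-Veh. At an unadjusted p under 0.05 there were 0, 0 and 1 of these 3.

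In monocytes Fcer1g was 1931 and 1632 (WT-Veh), 1662 and 1658 (SOD1-Veh), then 1139 and 1740 (SOD1-Nec), with overlap between SOD1-Nec and both others. Tyrobp was 2736 and 2163 (WT-Veh), 2594 and 2728 (SOD1-Veh), then 2010 and 2129 (SOD1-Nec); the SOD1-Nec values lay below the 4 others, with a log2 change of -0.27 ± 0.24 to SOD1-Veh (SE; edgeR adjusted p = 0.738). Of Tyrobp, Fcer1g and Fcgr3, edgeR and DESeq2 called 0 in monocytes, with 0 at an unadjusted p under 0.05, beside 1.49%, 1.49% and 0.124% of 807 genes in the order of comparisons above. In B cells only Syk passed the filter. It was 550 and 731 (WT-Veh), 490 and 398 (SOD1-Veh), then 561 and 342 (SOD1-Nec). SOD1-Veh lay below WT-Veh without overlap, with a log2 change of -0.46 (-1.28 to 0.35), and edgeR and DESeq2 called it in 0 comparisons, with 0 unadjusted p under 0.05, beside 0.202%, 0.605% and 0.404% of 991 genes. In erythroid cells none of the 7 passed the filter, while edgeR called 0.296%, 2.15% and 2.89% of 1351 genes.

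Summed over all retained cells, where the mixture of cell types enters, all 7 genes were tested and 0 were called in any comparison by edgeR or DESeq2, with 0 at an unadjusted p under 0.05. Of 7482 genes edgeR called 0.829%, 0.548% and 0.0401% in the same order, and without the skeletal muscle cluster the counts of called genes went from 62 to 6, from 41 to 0 and from 3 to 6. Fcgr3 was 243 and 205 (WT-Veh), 251 and 207 (SOD1-Veh), then 183 and 135 (SOD1-Nec), where both SOD1-Nec values were lowest. Its ratio to SOD1-Veh was 0.670 (0.435 to 1.03; edgeR adjusted p = 0.726). Trem2 was 239 and 296 (WT-Veh), 344 and 243 (SOD1-Veh), then 192 and 255 (SOD1-Nec), with overlap among the 3 groups. Syk was 73.7 and 69.5 (WT-Veh), 76.8 and 94.7 (SOD1-Veh), then 113 and 86.1 (SOD1-Nec), and its log2 change between SOD1-Nec and WT-Veh was 0.47 (-0.21 to 1.14; edgeR adjusted p = 0.689). B cells, which held most Syk UMIs, numbered 105 and 148 of 658 and 791 retained cells in SOD1-Nec. They numbered 58 and 83 of 395 and 430 in SOD1-Veh, and 52 and 33 of 508 and 549 in WT-Veh. The part of B-cell number in the Syk values was not tested. Cd33 passed the edgeR filter here only, with 2 to 17 UMIs per library, and had a log2 change of 0.30 (-1.24 to 1.84) between SOD1-Veh and WT-Veh that ran from -0.51 without WT-Veh library 2 to 2.47 without WT-Veh library 1.

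The wider pathway was described with a list of 75 genes for partner receptors, inhibitory receptors, kinases, scaffolds, phosphatases and sheddases, of which 72 were in the tables and 19 passed the filter in microglia. In SOD1-Veh against WT-Veh 1 of the 19 was called, downward, beside 2.39% of all tested genes. The median log2 change of the list was -0.25 beside 0.03 over all tested genes. The 13 microglial markers were lower in SOD1-Veh too, summing to 24557 and 24927 CPM against 29539 and 31459 in WT-Veh. The part of this lower marker RNA in the list median and the call was not tested. Siglech, a Siglec-family receptor of microglia that pairs with DAP12, was 2085 and 1785 (WT-Veh), 1082 and 882 (SOD1-Veh), then 1597 and 1183 (SOD1-Nec). It fell in SOD1-Veh to 0.513 of WT-Veh, with a log2 change of -0.96 ± 0.23 (SE) and an edgeR adjusted p of 0.00334. SOD1-Nec lay between the other groups, and its difference was called from neither SOD1-Veh (edgeR adjusted p = 0.254) nor WT-Veh (0.246). The call was kept under 10 of 13 alternatives and lost under DESeq2 (adjusted p = 0.0911), without WT-Veh library 1 (0.104) and without SOD1-Veh library 2 (0.0997).

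In SOD1-Nec against SOD1-Veh 1 of the 19 was called, also downward, beside 3.42% of all tested genes, with a list median of -0.27 beside -0.05. Here the 13 microglial markers summed to 18595 and 20007 CPM in SOD1-Nec and to 24557 and 24927 in SOD1-Veh. The part of this lower marker RNA in the list median and the call was not tested. Inpp5d encodes SHIP1, a lipid phosphatase that restrains signalling from these receptors. It was 257 and 239 (WT-Veh), 447 and 313 (SOD1-Veh), then 135 and 169 (SOD1-Nec), from 11 to 38 UMIs per library. SOD1-Veh was the highest and SOD1-Nec the lowest group, but neither was called against WT-Veh (edgeR adjusted p = 0.530 and 0.379). In SOD1-Nec Inpp5d fell to 0.414 of SOD1-Veh, with a log2 change of -1.27 ± 0.39 (SE, edgeR adjusted p = 0.0358). That call was lost under 8 of 13 alternatives, among them DESeq2 (adjusted p = 0.725), the replicate block (0.0529), leaving out SOD1-Veh library 1 (0.388) or 2 (0.0614), and leaving out SOD1-Nec library 1 (0.332) or 2 (0.154).

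In SOD1-Nec against WT-Veh 2 of the 19 were called, both downward, beside 6.2% of all tested genes. The list median was -0.41 beside 0.00, and 16 of the 19 values were below 0. Microglial markers were lower in SOD1-Nec too, with the 13 summing to 18595 and 20007 CPM against 29539 and 31459 in WT-Veh. The part of this lower marker RNA in the list median and the called genes was not tested. Lyn, the Src-family kinase that phosphorylates activating and inhibitory motifs, was 476 and 387 (WT-Veh), 282 and 157 (SOD1-Veh), then 135 and 219 (SOD1-Nec). It fell to 0.435 of WT-Veh, with a log2 change of -1.20 ± 0.37 (SE; edgeR adjusted p = 0.0237). Lair1, an inhibitory collagen receptor, was 695 and 910 (WT-Veh), 694 and 455 (SOD1-Veh), then 418 and 447 (SOD1-Nec), and fell to 0.558 of WT-Veh (edgeR adjusted p = 0.0324). Lyn lost its call under 7 of 13 alternatives and Lair1 under 8, both without either WT-Veh library (Lyn 0.230 and 0.0635; Lair1 0.0708 and 0.461) and without either SOD1-Nec library (Lyn 0.321 and 0.0674; Lair1 0.214 and 0.195). Over all retained cells 52 genes of the list were tested and edgeR called 0 in each comparison, with 4, 4 and 9 at an unadjusted p under 0.05, beside 781, 528 and 633 of all 7482 genes.

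**Figure D5:**
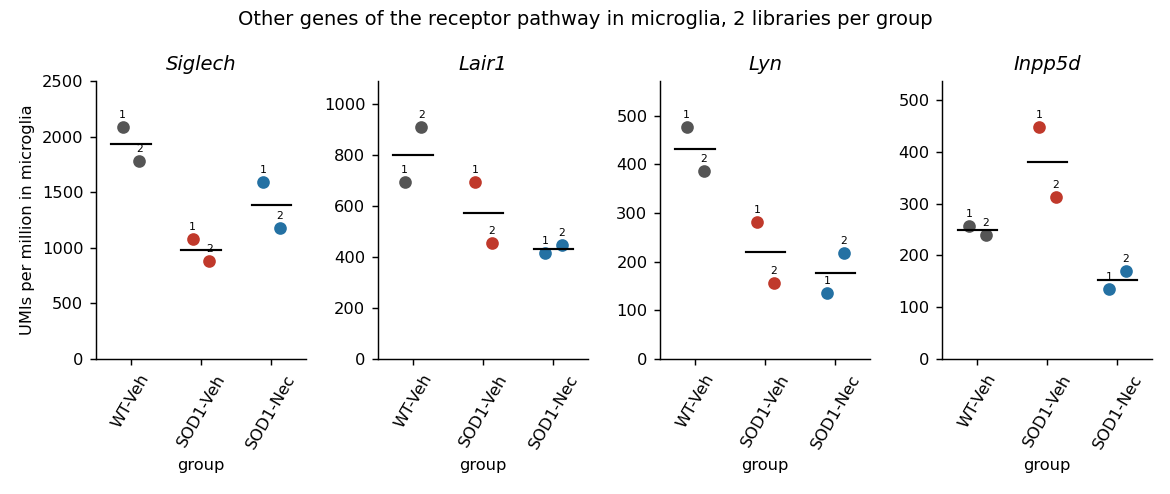
Level in microglia (y axis, CPM, from 0) of the 4 genes of the wider pathway that edgeR called in any comparison, in the 2 libraries of each group (x axis), with the group mean as a line. Siglech was lowest in SOD1-Veh, at 1082 and 882, and Inpp5d highest there, at 447 and 313.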

How the data were processed

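The deposited files are 6 tables of whole-number UMI counts, genes by barcodes, 1 per library. Per the labels' protocols, the authors digested cords with Accutase, removed myelin, took live cells from a density gradient and ran Drop-seq; per the submitters' processing notes the build was mm9. The aligner and annotation were not stated. Barcodes with at least 200 genes and at most 20% mitochondrial UMIs were kept, Scrublet doublets were removed per library, and cells were clustered with scanpy 1.11.5 (2000 variable genes without the 7 genes, 30 components, Leiden resolution 1). Clusters were named from marker lists. Counts were summed per library and class (at least 20 cells in each library) and tested with edgeR 4.0.16 (TMM, filterByExpr, quasi-likelihood F test, 1 fit of 6 libraries, Benjamini-Hochberg over all genes tested, threshold 0.05); DESeq2 1.42.0 was an alternative. Intervals of fold changes are 95%. The code was tested on simulated counts. All 7 genes are named throughout; genes of the wider pathway are named where called in microglia. The members and lists were chosen with earlier results of these data known. Alternatives changed the tool, filters, doublets, clustering, replicate block and libraries included. A result on likeness between genes is not reported here.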

Additional observations from a re-analysis of the deposited data

How the results depend on the processing

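None of the 7 genes was called under the main setting or any of 14 alternatives that changed the counts or the fit, over 904 tests; the lowest adjusted p, 0.160, was for Fcgr3 in microglia between SOD1-Nec and WT-Veh with at least 400 genes per barcode. Letting the 7 genes into the clustering gave the same cells and is not counted, nor is Leiden resolution 0.5 over all cells. Of 228 alternative log2 changes in microglia 216 stayed within 1 SE and 18 had the other sign; over all retained cells these were 261 and 22 of 270. The number of genes called in microglia moved more, from 37 (SOD1-Veh against WT-Veh), 53 (SOD1-Nec against SOD1-Veh) and 96 (SOD1-Nec against WT-Veh) to 16, 24 and 35 with at least 400 genes per barcode, to 11, 19 and 34 with DESeq2, and in the last to 62 with no filter. Leaving out 1 library gave 23 to 37, 25 to 64 and 40 to 110. Over all retained cells the counts of 62, 41 and 3 became 6, 0 and 6 without the skeletal muscle cluster. The first became 36 with at least 400 genes and 30 with no filter, and the last 7 with DESeq2 and 1 with no filter. Leaving out 1 library gave 28 to 171, 25 to 62 and 2 to 61. With the replicate block the counts were 33, 50 and 88 in microglia and 63, 41 and 5 over all cells. The deviations of same-numbered libraries correlated at -0.18 (WT-Veh with SOD1-Veh), -0.26 (WT-Veh with SOD1-Nec) and 0.17 (SOD1-Veh with SOD1-Nec) over all cells and at -0.03, -0.02 and -0.02 in microglia, so a pairing beyond the shared number and gene list was not seen in every pair. Inpp5d lost its call with the block (adjusted p = 0.0529 by edgeR). Tyrobp in monocytes, 2393 CPM, was 2047 at Leiden resolution 0.5 and 2038 with doublets kept. Microglia had 2147 and 2140 in those settings, so there the order of the monocyte and microglial means was reversed. The cause of these shifts was not tested. Counts of a few UMIs limit Cd33, Syk and Plcg2 in microglia.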
